A study of Mus musculus with 12 samples.

Results

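The comparison described here sets CD4+ T cells of B6 mice given anti-CD45RB against CD4+ T cells of untreated B6 mice. It uses 6 of the 12 RNA-Seq libraries of the study, chosen by the strain and treatment in their labels. Replicates 1, 3 and 5 were treated and replicates 3, 4 and 5 were untreated, which gave 3 libraries per group. B6 is the C57BL/6J inbred strain, and the mice were females of 9 to 12 weeks, 3 per group. The untreated libraries carry no treatment in their labels and are titled as controls. Treated mice received the monoclonal antibody MB23G2, which binds the RB segment of CD45, in 5 intraperitoneal injections of 100 μg, the first on day 0 and the others on days 1, 3, 5 and 7. Neither the labels nor the methods name a control antibody or a sham injection for the untreated mice, so that effects of the antibody and of the injections cannot be told apart. The cells came from negative magnetic sorting, in which unwanted cells are bound by antibodies and the CD4+ cells are left unbound. A later division by CD25, a surface marker of regulatory T cells, is part of the methods, but the labels name no such fraction. No label ties a library to a mouse, so p-values measure the spread between these libraries. The other 6 libraries came from treated and untreated SLE123 mice, a B6 congenic strain with 3 lupus susceptibility loci, and were used to filter low values and to test whether a change in B6 differed from that in SLE123.

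Transcript levels are FPKM, the fragments of a gene divided by the transcript's length and by the mapped fragments of the library. Of the 35275 genes listed, the 13115 whose mean over the 12 libraries reached 0.5 FPKM were tested. Fold changes are differences of log2(FPKM + 1), treated minus untreated, which understates the change of genes with low FPKM. A gene was called when the Benjamini-Hochberg adjusted p-value of limma's moderated test, taken over all 13115 genes, was below 0.05, and every adjusted p-value below comes from that test. The B6 libraries held 13562933 to 18086449 fragments. A transcript of 2000 bases that drew 3 fragments would have 0.0829 to 0.111 FPKM in these libraries, and values near or below this level cannot be told from 0.

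CD45, the product of Ptprc, is a receptor tyrosine phosphatase of nucleated blood cells that sets the activity of the kinases LCK and FYN at the T cell receptor. Its RB segment is retained in naive CD4+ T cells and largely spliced out in memory cells, and antibodies to it induce tolerance to transplants in mice. Naive CD4+ T cells circulate through lymph nodes with the help of the receptor CCR7, under the control of the transcription factor KLF2. Signals from the T cell receptor induce immediate early genes such as those of the EGR, FOS and NR4A families, and cells with past activation carry high levels of annexins, S100 proteins and galectin-1.

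In B6 CD4+ T cells, 1948 genes were called after anti-CD45RB, 14.9% of those tested. Of these, 1146 (8.74%) were higher and 802 (6.12%) lower, so that counts of called genes in any group below are to be read against these shares. Rises reached larger sizes than falls. Among genes called higher, 177 had a log2 fold change of at least 1 and 38 of at least 2, and the median was 0.435. Among genes called lower, 3 fell by 1 or more and the median was -0.30. The median over all genes tested was -0.002. With quantile normalization the split of higher and lower genes was 996 and 1051 in place of 1146 and 802. Without 1 library at a time, the number of genes called higher and lower was 892 and 501 without treated replicate 1, 719 and 390 without treated replicate 3, 602 and 242 without treated replicate 5, 584 and 264 without untreated replicate 3, 492 and 183 without untreated replicate 4, and 837 and 513 without untreated replicate 5. For a list with 2 or more genes called in a direction, where the count dropped by more than 1.5 times without some library, the lowest count is given in parentheses with each library that gives it. Counts of 1 are given without this.

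The libraries of a group resembled each other, with Pearson correlations of 0.989 to 0.993 within the groups and 0.976 to 0.986 between them, and no library was left out. The gene of the antibody's target was transcribed in all of them. FPKM per gene do not show whether its RB segment was retained. Ptprc had 479, 436 and 468 FPKM in treated and 542, 510.2 and 507 FPKM in untreated libraries (log2 fold change -0.17 ± 0.0468 standard error, adjusted p = 0.0515) and was not called although the groups did not overlap. With voom on recovered fragments its adjusted p was 0.012. Such a separation of the groups was found for 38% of all genes tested. Of the 10 genes listed as CD4 T cell markers, which include chains of the T cell receptor, 5 were called lower (1 without treated replicate 3 or untreated replicate 3 or 4). Trac, the constant region of the T cell receptor alpha chain, had 734, 728 and 741 FPKM in treated and 901, 923 and 961 FPKM in untreated libraries, and all treated libraries lay below all untreated ones. It fell by 0.34 (standard error 0.0348, adjusted p = 0.00244). Trbc2 fell by 0.17 and Trbc1 by 0.11 on the log2 scale, while Cd4 itself had 283, 276 and 272 FPKM in treated and 295, 307 and 296 FPKM in untreated libraries and a log2 fold change of -0.11 that missed the threshold (adjusted p = 0.0542). The summed FPKM of the 10 CD4 T cell markers was 4419, 4395 and 4500 in treated and 4899, 4954 and 4999 in untreated libraries. In these bulk samples, fewer cells of a type and less RNA per cell cannot be told apart.

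Transcripts of other blood cells made up most of the largest rises. Leaving out receptor and antibody segments, predicted genes and genes without a symbol, the 12 largest were H2-Eb1, Lyz2, H2-Ab1, H2-Aa, Ccl3, Cd74, Ccl6, Tyrobp, Prss34, Gzma, S100a8 and Fcmr, with log2 fold changes from 2.40 to 3.44. H2-Ab1, H2-Aa and H2-Eb1 encode chains of the MHC class II molecules that present antigen to CD4+ T cells, and Cd74 encodes their invariant chain. H2-Eb1 had 31.7, 31 and 23.3 FPKM in treated and 2.98, 0.70 and 1.94 FPKM in untreated libraries (log2 fold change 3.44, standard error 0.297, adjusted p = 0.00142). Cd74 had 98.6, 101 and 73.6 FPKM in treated and 12.7, 7.92 and 12.8 FPKM in untreated libraries, a rise of 2.94 (standard error 0.194, adjusted p = 6.53e-04). In both genes the lowest treated library was several times the highest untreated one. Of the 12 genes for presentation on MHC class II, 8 rose, among them Ciita, their transcriptional coactivator (0.90), and the peptide exchange factors H2-DMa (0.24), H2-DMb1 (1.35) and H2-DMb2 (1.18). H2-Ob fell (-0.22, adjusted p = 0.0274), and H2-Oa, Cd86 and Cd80 were not called.

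The promoters of H2-Aa and H2-Eb1 are shown because both genes were among the 12 largest rises named above and both hold the Y box, a known element of MHC class II promoters. Each line gives the 170 bases that end just before the annotated start, 5′ to 3′, from RefSeq (GRCm38.p6), with motifs found by a search of both strands in capitals. In H2-Aa (chr17:34287824-34287993, minus strand) the capitals mark the CRE, the binding motif of CREB (TGACGTCA), and the Y box (CTGATTGG), and in H2-Eb1 (chr17:34305697-34305866, plus strand) the Y box alone.
H2-Aa: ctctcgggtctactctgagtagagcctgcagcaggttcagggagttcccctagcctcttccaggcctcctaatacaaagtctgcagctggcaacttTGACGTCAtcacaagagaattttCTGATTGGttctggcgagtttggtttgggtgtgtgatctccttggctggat
H2-Eb1: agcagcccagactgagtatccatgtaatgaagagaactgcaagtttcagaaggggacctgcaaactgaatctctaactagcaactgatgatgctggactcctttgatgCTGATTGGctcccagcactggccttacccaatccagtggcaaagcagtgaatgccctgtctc
The Y box lay 51 bases before the start in H2-Aa and 62 in H2-Eb1. It was found in 3 of the 8 MHC class II presentation genes with a promoter in the table and in 6.75% of the 9313 genes tested that have one. Such a match describes the letters of the promoter and does not show that a factor bound there.

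Several lineages other than CD4+ T cells were represented among the genes called higher, each by a list of markers. Only markers that passed the filter on mean FPKM were tested, and a low marker can pass it through the libraries where it is high. Counts of tested markers that rose are to be read with this limit. Of the B cell markers, 6 of 7 tested rose, including Cd79a, which had 11.4, 12 and 8.32 FPKM in treated and 2.08, 2.31 and 2.26 FPKM in untreated libraries (adjusted p = 7.52e-04). Cd79a and Cd79b, which form the signalling part of the B cell receptor, rose by 1.83 and 1.81. The summed B cell markers were 31.8, 35.3 and 25.9 FPKM in treated and 6.82, 6.25 and 7.77 FPKM in untreated libraries. Fcmr, the receptor for IgM, had 5.25, 6.95 and 5.35 FPKM in treated and 0.271, 0.242 and 0.35 FPKM in untreated libraries. Its rise of 2.40 had a standard error of 0.112 (adjusted p = 2.74e-04), and the treated libraries were close to each other. Among plasma cell markers, Mzb1 rose by 1.95 and Xbp1 by 0.34, while Jchain, Sdc1 and 3 others of the 7 were not called. Ighg1, the constant region of IgG1, which was outside the rule for naming and was added after its values were seen, had 186, 514 and 99.6 FPKM in treated and 13.3, 17 and 15.3 FPKM in untreated libraries (log2 fold change 3.72, adjusted p = 0.00745).

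Myeloid genes rose as well. Lyz2, the lysozyme of macrophages and granulocytes, had 94.7, 30.1 and 27.7 FPKM in treated and 6.41, 1.66 and 3.14 FPKM in untreated libraries (log2 fold change 3.34, standard error 0.539, adjusted p = 0.0116). Treated replicate 1 stood about 3 times above the other treated libraries, which were themselves above all untreated ones. Without treated replicate 1 its log2 fold change was 2.78 (adjusted p = 0.0174). The summed monocyte or macrophage markers were mostly Lyz2 itself, with 99, 33 and 29.9 FPKM in treated against 7.3, 2.39 and 3.72 FPKM in untreated libraries. Of the 6 of these markers tested, 2 were called higher, and their median log2 fold change was 0.107. Csf1r, the receptor for the macrophage growth factor, rose by 1.14, and C1qa, C1qb and C1qc, the complement genes of tissue macrophages, were at or below 0.123 FPKM in every B6 library. S100a8 and S100a9, the calcium-binding proteins of neutrophils, rose by 2.54 and 2.27, with S100a8 at 3.76, 6.54 and 7.43 FPKM in treated and 0.316, 0 and 0.159 FPKM in untreated libraries. Neutrophil markers summed to 16.3, 23 and 22.9 FPKM in treated and 4.74, 3.93 and 5.29 FPKM in untreated libraries. Tyrobp, an adaptor of activating receptors in myeloid and NK cells, had 28, 24.3 and 21.2 FPKM in treated and 4.51, 1.27 and 2.75 FPKM in untreated libraries, and Fcer1g, the shared signalling chain of Fc receptors, rose by 2.30 (adjusted p = 0.00155). Among dendritic cell markers, Itgax, Flt3, Zbtb46 and Bst2 rose (2 without treated replicate 1 or 3 or untreated replicate 3, 4 or 5), by 1.59, 0.89, 0.35 and 0.52, and the sums were 79.6, 90.7 and 68.1 FPKM in treated and 53.7, 45 and 54.2 FPKM in untreated libraries. These sums were mostly Bst2, which is also listed among the interferon-stimulated genes and reached 82.4 FPKM in treated and 52.8 FPKM in untreated libraries. Itgax, the next highest of these markers, reached 3.29 FPKM. 

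Basophil or mast cell markers rose in 6 of 7 genes. Mcpt8, a protease of basophils, had 5.09, 4.14 and 7.93 FPKM in treated and 0.362, 0.259 and 0.581 FPKM in untreated libraries (log2 fold change 2.23, adjusted p = 0.00175), and Prss34, another basophil protease, had 6.79, 4.32 and 12.7 FPKM in treated and 0.561, 0.0909 and 0.358 FPKM in untreated libraries (2.65, adjusted p = 0.00483). Treated replicate 3 was the lowest treated library in both. Hdc, which makes histamine, rose by 1.02, Cyp11a1 by 1.23 and Gata2 by 1.04. Of the 6 platelet markers listed, the 3 tested all rose, Ppbp by 2.37, Pf4 by 1.57 and Itga2b by 1.12. The sums of the platelet markers were 22.2, 13.5 and 18.2 FPKM in treated and 4.42, 2.75 and 2.75 FPKM in untreated libraries. Eosinophil and erythroid markers were low throughout, and Prg2 (1.33), Ear2 (0.52), Hba-a1 (1.35) and Hbb-bs (1.02) rose. In contrast, hepatocyte markers, which were present in all B6 libraries, had sums of 48.7, 48.5 and 41.5 FPKM in treated and 47.2, 49.2 and 47.6 FPKM in untreated libraries, and none of the 6 tested was called (Alb -0.05, adjusted p = 0.698).

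**Figure D1:**
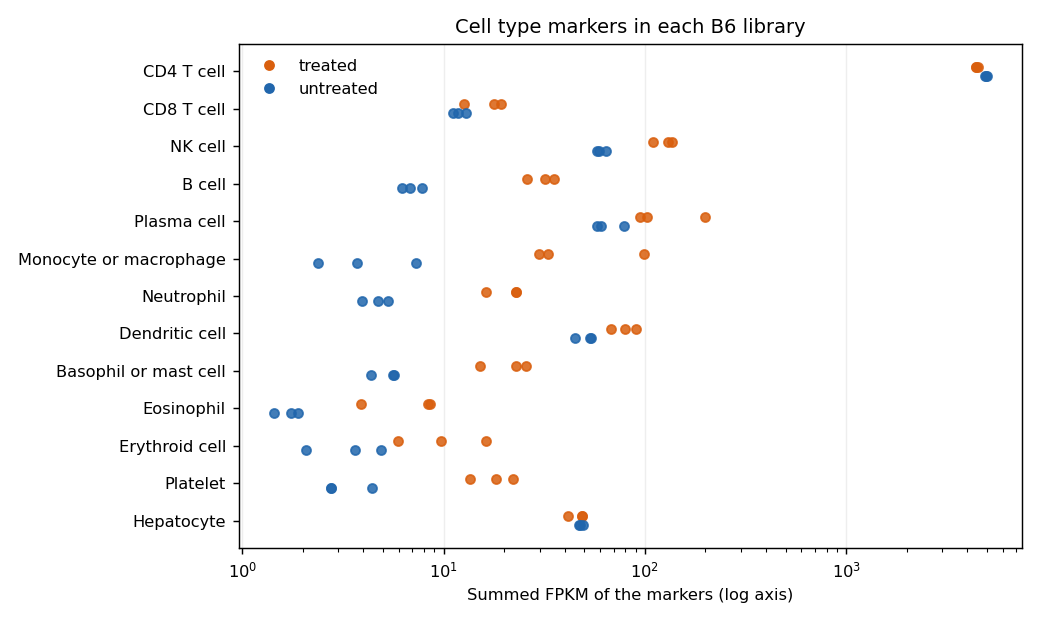
Summed FPKM of each list of cell type markers (log axis) in each B6 library, with treated libraries as orange points and untreated libraries as blue points. Treated libraries lie above untreated ones for every list other than CD4 T cells, where they lie below, and CD8 T cells and hepatocytes, where the groups overlap. The dendritic cell sums are mostly Bst2, and the monocyte or macrophage sums mostly Lyz2.

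Genes of NK cells, of cytotoxic granules and of chemokines rose. Ncr1, the receptor NKp46 of NK cells, had 5.42, 5.35 and 6.4 FPKM in treated and 0.29, 0.259 and 0.499 FPKM in untreated libraries (log2 fold change 2.32, adjusted p = 2.74e-04), and 5 of 7 NK cell markers tested were called, with sums of 110, 137 and 131 FPKM in treated and 59.5, 57.7 and 63.8 FPKM in untreated libraries. Eomes and Klrb1c were not called. The CD8 T cell markers summed to 17.8, 12.7 and 19.4 FPKM in treated and 11.8, 13 and 11.1 FPKM in untreated libraries, and the 1 of them tested was not called. Of 13 cytotoxic genes 7 rose. Gzma, a granule protease, had 12.5, 7.51 and 18.8 FPKM in treated and 1.48, 0.819 and 1.27 FPKM in untreated libraries (2.60, adjusted p = 0.00339), and Gzmb had 7.96, 7.41 and 8.89 FPKM in treated and 3.28, 2.61 and 2.23 FPKM in untreated libraries (1.30, adjusted p = 0.00173). Nkg7 rose by 1.02. Prf1, which encodes the pore-forming perforin, went the other way, with 11.8, 13.2 and 11.6 FPKM in treated and 16.7, 16.3 and 17.9 FPKM in untreated libraries (log2 fold change -0.45, standard error 0.0635, adjusted p = 0.0075), and its groups did not overlap. Gzmk, added to complete the granzymes, was at 0.04 and not called (adjusted p = 0.941).

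Of the 10 chemokine genes tested, 6 rose and none fell, with a median log2 fold change of 1.21. Ccl5, which attracts T cells and monocytes, was the most abundant, with 166, 205 and 229 FPKM in treated and 56.3, 56.4 and 59.8 FPKM in untreated libraries (log2 fold change 1.77, standard error 0.107, adjusted p = 5.15e-04). Ccl3 and Ccl4, which attract monocytes and activated T cells, rose by 3.002 and 2.10, Ccl6 and Ccl9 by 2.90 and 1.92, and Xcl1, a ligand of cross-presenting dendritic cells, by 0.55. Ccl3 had 15.1, 7.97 and 16.8 FPKM in treated and 1.13, 0.361 and 0.73 FPKM in untreated libraries, without overlap. Whether these transcripts came from CD4+ T cells or from the other cells whose markers rose in the same libraries was not tested.

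The promoter of Gzmb is shown because its proximal part held the AP-1 motif (TGANTCA, in capitals), which was found in 8.81% of the genes called higher, in 5.29% of those called lower and in 5.86% of all genes tested with a promoter. The stretch lies at chr14:56262335-56262504 on the minus strand, and the motif begins 58 bases before the start.
Gzmb: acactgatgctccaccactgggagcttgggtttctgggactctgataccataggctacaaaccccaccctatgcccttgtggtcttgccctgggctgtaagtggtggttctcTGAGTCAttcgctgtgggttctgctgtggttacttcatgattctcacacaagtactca
Among the other motifs searched on both strands in the 300 bases around the start, the CRE was found in 2.12% of genes called higher, 3.24% of those called lower and 3.63% of all genes. Its half-site TGACG, which every CRE contains, was found in 30.1%, 32.1% and 36.1%. The E-box CACGTG was found in 11.5%, 11.6% and 11.8%, and the STAT motif TTCNNNGAA in 10.2%, 5.80% and 8.27%. Promoters were listed for 9313 of the 13115 genes, among them 851 called higher and 586 called lower.

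Genes of earlier activation rose in their majority. Of the 25 memory and effector T cell genes, 16 rose and none fell, with a median log2 fold change of 0.52. Lgals1 (chr15:78926725-78930465, GRCm38), which encodes galectin-1, had 196, 199.6 and 214 FPKM in treated and 78.3, 79.4 and 88 FPKM in untreated libraries (log2 fold change 1.30, standard error 0.0554, adjusted p = 2.74e-04). Anxa2, an annexin that binds membrane phospholipids, had 27.7, 28.2 and 30.8 FPKM in treated and 11.1, 11.7 and 12.3 FPKM in untreated libraries (1.23, adjusted p = 2.74e-04). Anxa1, a related annexin, had 8.02, 8.5 and 6.25 FPKM in treated and 1.89, 1.72 and 1.89 FPKM in untreated libraries (1.59, adjusted p = 7.52e-04). In these 3 genes every treated library was at least 2 times every untreated one. Crip1 rose by 0.83, and S100a4, S100a6, S100a10 and S100a11 by 1.23, 0.94, 0.52 and 0.50. The adhesion receptor Cd44, the first of the list, had 20.4, 24.1 and 19.1 FPKM in treated and 16.6, 17.9 and 18.1 FPKM in untreated libraries and was not called (0.25, adjusted p = 0.0916). Il2rb, a chain of the receptors for interleukins 2 and 15, had 134, 166 and 136 FPKM in treated and 92.4, 89 and 91.3 FPKM in untreated libraries (0.67, adjusted p = 0.00429). Myeloid and NK cells also transcribe several of these genes. The summed NK cell markers rose in the same libraries, and their part in this result was not tested.

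Genes of helper T cell differentiation rose by smaller amounts. Of the 16 genes of the Th1, Th2 and Th17 programs tested, 9 rose (5 without treated replicate 5 or untreated replicate 4) and none fell (median 0.33). Tbx21, the Th1 factor T-bet, had 13.7, 15.1 and 15.3 FPKM in treated and 9.67, 10.2 and 11 FPKM in untreated libraries (0.48, adjusted p = 0.0066), and Gata3, the Th2 factor, rose by 0.30. Il18r1 and Il18rap, which form the receptor of interleukin 18, rose by 0.52 and 0.70, and Ifng by 0.40. The summed NK cell markers rose in the same libraries, and the part of NK cells in these rises was not tested. Among T follicular helper genes falls were more frequent, with 4 of 17 lower (0 without treated replicate 5 or untreated replicate 4), 1 higher and a median of -0.21. Cxcr5, the receptor that leads these cells to B cell follicles, had 5.9, 7.14 and 4.65 FPKM in treated and 7.75, 11.3 and 11 FPKM in untreated libraries (log2 fold change -0.68, adjusted p = 0.0454), Slamf6 fell by 0.40, Tox by 0.39 and Sh2d1a by 0.21, while Batf rose by 0.26. Bcl6, the factor that defines the lineage, had 5.57, 5.92 and 4.94 FPKM in treated and 6.6, 7.58 and 6.81 FPKM in untreated libraries and was not called (-0.31, adjusted p = 0.0534).

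Among 24 regulatory T cell genes, 5 rose (2 without untreated replicate 4) and 2 fell (1 without treated replicate 1 or 5 or untreated replicate 4 or 5). Foxp3, the factor of the lineage, had 8.54, 7.87 and 7.65 FPKM in treated and 3.93, 5.09 and 6.65 FPKM in untreated libraries, with every treated library above every untreated one, and just missed the threshold (0.56, standard error 0.153, adjusted p = 0.0536). Without untreated replicate 5 it was called (adjusted p = 0.0227). The members that rose were markers of differentiated regulatory cells and of other effector cells. Klrg1, an inhibitory receptor, had 4.54, 5.4 and 4.71 FPKM in treated and 0.921, 0.899 and 0.791 FPKM in untreated libraries (1.65, adjusted p = 3.63e-04), Capg rose by 0.59, Il1rl1, the receptor of interleukin 33, by 0.61, Itgae by 0.81 and Entpd1 by 0.39. Izumo1r, the folate receptor 4 of regulatory and anergic cells, had 45.5, 66.3 and 47.6 FPKM in treated and 77.5, 96 and 89.7 FPKM in untreated libraries (-0.73, adjusted p = 0.0227), and Gpr83 fell by 0.51. Il2ra, Ctla4 and Ikzf2, which were added to complete the group, were at 0.22, 0.06 and 0.16 and not called. Of 13 coinhibitory receptors, Cd244a, Havcr2 and Vsir rose, by 1.20, 0.57 and 0.20, Cd101 and Cd96 fell (0 without treated replicate 1, 3 or 5 or untreated replicate 3 or 4), by 0.40 and 0.23, and Pdcd1 was not called (-0.05, adjusted p = 0.855).

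Genes of the naive state moved in both directions, 3 of 19 higher and 5 lower (1 without untreated replicate 3 or 4). Klf2 (chr8:72319033-72321656, GRCm38), which maintains quiescence and the trafficking receptors of naive T cells, had 366, 338 and 357 FPKM in treated and 215, 206 and 216 FPKM in untreated libraries. Its rise of 0.73 (standard error 0.0388, adjusted p = 3.63e-04) was large against the spread of either group. S1pr1, the receptor for exit from lymph nodes, which KLF2 is known to activate, was not called, at -0.02 (adjusted p = 0.858). Dapl1 rose by 0.60 and Cd55 by 0.44. Ccr7, the receptor for entry into lymph nodes, had 206, 198 and 219.9 FPKM in treated and 249, 249 and 241 FPKM in untreated libraries (-0.24, adjusted p = 0.0149), and Tcf7, which encodes the factor TCF-1, had 739.9, 697 and 744 FPKM in treated and 845, 842 and 841 FPKM in untreated libraries (-0.21, adjusted p = 0.013). Both groups were narrow and separate in these genes. Nsg2 fell by 0.32, Il6st, the signalling chain of the interleukin 6 receptor, by 0.42 and Actn1 by 0.14.

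Proximal signalling genes of the T cell receptor were more often lower than higher, 8 (2 without treated replicate 1, 3 or 5 or untreated replicate 3 or 4) against 2 (1 without treated replicate 1, 3 or 5 or untreated replicate 3 or 4) of 35, with a median of -0.08. Themis, which tunes the strength of the signal, had 29.3, 29.1 and 30.6 FPKM in treated and 41.2, 37.6 and 36.2 FPKM in untreated libraries (log2 fold change -0.36, standard error 0.0526, adjusted p = 0.00823). The costimulatory receptor Cd28 fell by 0.23, the kinase Fyn by 0.14, and Cd6, Cd3g, Cd5 and the adaptor Lcp2 by 0.21, 0.15, 0.16 and 0.12. Tec, a tyrosine kinase, was higher, with 14.2, 17.6 and 16.1 FPKM in treated and 9.37, 9.58 and 9.84 FPKM in untreated libraries (0.68, adjusted p = 0.00373), and the adaptor Grb2 rose by 0.18. Lck, Zap70 and Lat, named to complete the pathway, were at -0.06, -0.12 and -0.03 and not called. The summed CD4 T cell markers were lower in the same libraries, and the median log2 fold change of these markers was -0.124. Their part in this result was not tested.

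Immediate early genes that follow this signal were lower in part. Of 27 tested, 5 fell (1 without treated replicate 5 or untreated replicate 3 or 4) and 2 rose. Egr1, Egr2 and Egr3, zinc finger factors induced within minutes of stimulation, fell by 0.41, 0.66 and 0.63. Egr1 had 19.96, 16.2 and 17.6 FPKM in treated and 24.1, 24 and 24 FPKM in untreated libraries (adjusted p = 0.0149), and Egr2 had 2.83, 4.22 and 3.23 FPKM in treated and 5.94, 6.23 and 5.7 FPKM in untreated libraries (adjusted p = 0.016). Junb, a partner of FOS in AP-1, had 372, 278 and 288 FPKM in treated and 400.5, 434 and 449 FPKM in untreated libraries (-0.46, adjusted p = 0.0354), and Nr4a3 fell by 0.49. Fos had 95.4, 61.5 and 65.7 FPKM in treated and 102, 104 and 121 FPKM in untreated libraries and was not called (-0.57, adjusted p = 0.0583), and treated replicate 1 was close to the untreated libraries. Without that library the adjusted p was 0.00821 for Fos. Klf6 and Ier3 rose by 0.77 and 0.97, and Cd69, an early surface marker that was added for comparison, was at 0.45 (adjusted p = 0.0544). Feedback regulators of the MAP kinase cascade changed in opposite directions. Spry2 (chr14:105891947-105896819, GRCm38), an inhibitor of this cascade, had 5.66, 5.74 and 6.96 FPKM in treated and 1.75, 1.48 and 1.64 FPKM in untreated libraries (1.44, adjusted p = 6.53e-04), whereas Spry1 fell by 0.53 and Dusp6, a phosphatase of MAP kinases, had 11, 10.8 and 10.3 FPKM in treated and 15.3, 17.8 and 19 FPKM in untreated libraries (-0.64, adjusted p = 0.00456). Map3k8 and Map2k3 rose by 0.49 and 0.36, while Araf fell by 0.17.

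**Figure D2:**
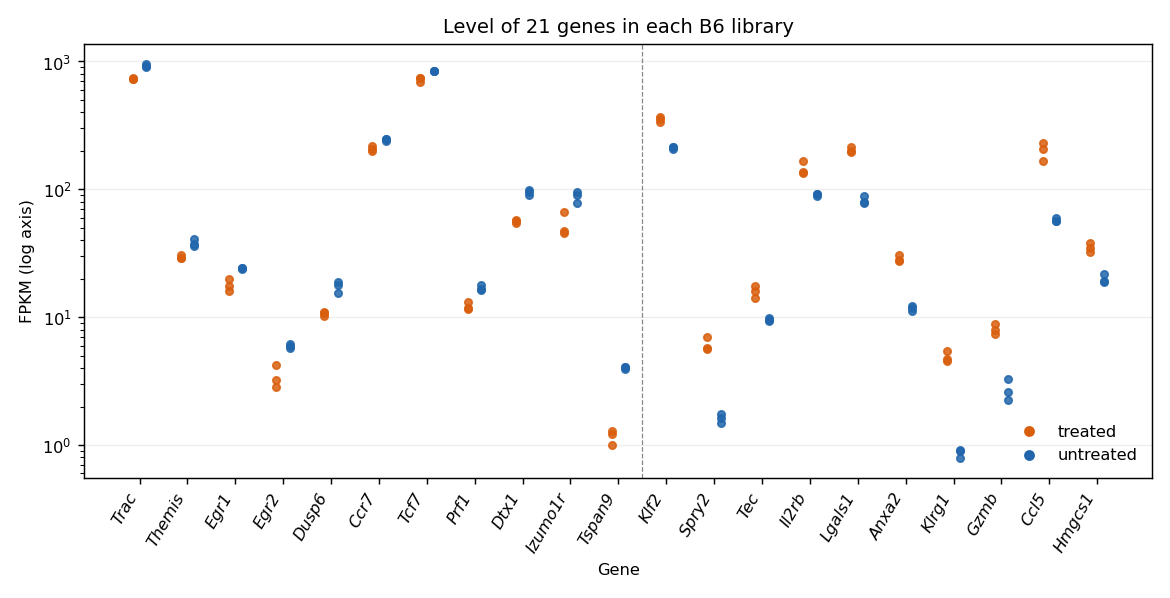
FPKM (log axis) of 21 genes in each B6 library, with treated libraries as orange points and untreated libraries as blue points. The 11 genes from Trac to Tspan9, left of the dashed line, lie lower in treated libraries, and the 10 from Klf2 to Hmgcs1, right of it, lie higher.

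In the calcineurin and NFAT list no gene of 23 was called by limma, 5 had an unadjusted p-value below 0.05 and the median was 0.01. Voom on recovered fragments called 2 of them. Ppp3ca, the catalytic subunit of calcineurin, had 16.2, 15.4 and 15.2 FPKM in treated and 17.9, 15.3 and 16.5 FPKM in untreated libraries (-0.08, adjusted p = 0.409). Among 24 genes of CREB, its CRTC coactivators and cAMP, 2 rose (1 without treated replicate 5 or untreated replicate 3, 4 or 5) and 2 fell (0 without treated replicate 5 or untreated replicate 3 or 4). Crtc2, a coactivator of CREB, had 46.9, 47.5 and 46.5 FPKM in treated and 38.9, 37.9 and 41 FPKM in untreated libraries (0.25, adjusted p = 0.00829) without overlap, and Creb1 was at 0.14 (adjusted p = 0.103). Prkacb, a catalytic subunit of the kinase that cAMP activates, and Pde4d, which degrades cAMP, fell by 0.23 and 0.44, and Pde4a rose by 0.49. Of 33 genes of PI3K, AKT and mTOR, 1 was called, and 10 had an unadjusted p-value below 0.05. Voom on recovered fragments called 7 of these 33 genes higher and 1 lower, and centring on the median log-ratio called 6 higher. Of the 8 GIMAP GTPases, which support lymphocyte survival, none was called (unadjusted p below 0.05 in 3, voom called 0). In the NF-kappaB pathway, the inhibitors Nfkbia and Nfkbib rose by 0.49 and 0.28 and Nfkb2 by 0.40, whereas Nfkbid and the deubiquitinase Cyld fell by 0.30 and 0.17. Nfkb1, the first of these 28 genes, was at 0.02 (adjusted p = 0.741).

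Genes of cholesterol synthesis and uptake rose together. Of 24 tested, 16 were called higher (10 without untreated replicate 4), none lower, and 23 had a positive fold change, with a median of 0.41 against -0.002 for all genes. The transcription factor SREBP2, the product of Srebf2, activates this pathway when cell membranes hold little cholesterol. Hmgcs1 (chr13:119690379-119708260, GRCm38), an early enzyme of the pathway, had 34.8, 32.2 and 37.7 FPKM in treated and 21.9, 19.2 and 19 FPKM in untreated libraries (log2 fold change 0.77, standard error 0.0754, adjusted p = 0.00217), and Sqle, a later enzyme that oxidises squalene, had 11.5, 11.2 and 13.9 FPKM in treated and 7.09, 5.46 and 6.5 FPKM in untreated libraries (0.84, adjusted p = 0.00593). No treated library overlapped an untreated one in either gene. Mvd rose by 0.46, Cyp51 by 0.88, Fdps by 0.80 and Srebf2 itself by 0.22. In SLE123 mice the same contrast gave 0.55 for Hmgcs1 and 0.75 for Sqle, neither of which was called there, and the interaction was called for neither (adjusted p = 0.466 and 0.79), with differences between the strains of -0.22 and -0.09 (standard errors 0.182 and 0.185).

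The promoter of Hmgcs1 is shown because it held the sterol regulatory element, the binding motif of SREBP factors (TCACNCCAC, in capitals), 137 bases before the start (chr13:119690181-119690350, plus strand). Of the 17 genes of this list with a promoter in the table it was the 1 gene with the motif, which was found in 17 of 851 genes called higher, 4 of 586 (0.683%) called lower and 128 of 9313 (1.37%) of all genes tested with a promoter.
Hmgcs1: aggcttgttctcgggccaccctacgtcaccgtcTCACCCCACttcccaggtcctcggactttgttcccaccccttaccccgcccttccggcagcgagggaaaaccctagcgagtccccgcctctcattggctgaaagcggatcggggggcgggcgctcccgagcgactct
This motif, the Y box and the interferon motif described next were added after the values of the genes had been seen.

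Interferon-stimulated genes rose in 15 of 43 (6 without untreated replicate 4) and fell in none, with a median of 0.24. Ifi27l2a, the most abundant of those called, had 252, 280.1 and 254 FPKM in treated and 169.6, 174 and 165 FPKM in untreated libraries (0.62, standard error 0.0469, adjusted p = 7.94e-04). Oas3, which senses double-stranded RNA, rose by 0.60, Usp18, a brake on the interferon receptor, by 0.68 and Irgm2, an immunity-related GTPase, by 0.37. Igtp, another such GTPase, had 96, 102 and 89.1 FPKM in treated and 73, 64.7 and 72.2 FPKM in untreated libraries (0.44, adjusted p = 0.00763). Ifit1, the first of the list, rose by 0.44 (adjusted p = 0.017), whereas Isg15 and Irf1 were at 0.30 and 0.08 and not called. The promoter of Igtp (chr11:58199386-58199555, plus strand) is shown with matches to the core of the interferon-stimulated response element (GAAANNGAA) and the STAT motif in capitals.
Igtp: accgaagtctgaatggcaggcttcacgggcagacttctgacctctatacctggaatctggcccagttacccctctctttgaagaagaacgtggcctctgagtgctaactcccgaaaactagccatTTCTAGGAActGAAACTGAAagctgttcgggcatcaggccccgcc
The response element core was found in 19 of the 29 interferon-stimulated genes with a promoter in the table and in 8.70% of all genes.

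Genes of adhesion and migration rose in part. Of 38 integrins and adhesion molecules 15 rose (8 without untreated replicate 4) and none fell, which included Itgax (1.59), Itga2b (1.12) and Itgam (1.06), which myeloid cells and platelets also carry. Spn, the sialomucin CD43 of T cells, had 222, 205 and 234 FPKM in treated and 167, 172 and 175 FPKM in untreated libraries (0.36, adjusted p = 0.00679), and Itga5, the first of the list, rose by 0.37, while Itgal, which forms LFA-1 and was added for comparison, was at -0.10 (adjusted p = 0.154). Of 49 actin cytoskeleton genes, 12 rose (4 without untreated replicate 4) and 3 fell (0 without treated replicate 5 or untreated replicate 3 or 4). Ezr, which links actin to the membrane, had 244, 233 and 244 FPKM in treated and 159, 158 and 165 FPKM in untreated libraries (0.57, standard error 0.0327, adjusted p = 4.22e-04), and Rhoa, a GTPase that controls contraction, had 256, 252 and 259 FPKM in treated and 208, 197 and 208 FPKM in untreated libraries (0.32, adjusted p = 0.00233). Lsp1 and Wasf2 rose by 0.25 and 0.22, and Actb was at -0.07 (adjusted p = 0.361). The chemokine receptor Cxcr4, which retains cells in bone marrow, had 106, 106 and 98.3 FPKM in treated and 72.4, 58.7 and 68.3 FPKM in untreated libraries (0.63, adjusted p = 0.00431), and Ccr2 and S1pr4 rose by 0.81 and 0.36. Atp1b3 and Atp1b1, which encode beta subunits of the sodium and potassium pump, rose by 0.25 and 0.26. Atp1b3 had 479.8, 474 and 489 FPKM in treated and 417, 403 and 393 FPKM in untreated libraries, with a gap between the groups.

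Further transcription factors, stress genes and regulators of survival and division were called. Of 45 Ikaros, KLF and other lymphoid factors 14 rose (8 without treated replicate 1 or untreated replicate 3), including Bhlhe40 (0.63) and Runx2 (0.83), and Myb, named as the only one of them to fall, had 8.97, 12.6 and 11 FPKM in treated and 15.5, 15.3 and 16.4 FPKM in untreated libraries (-0.51, adjusted p = 0.027). Of 27 genes listed under quiescence and cell cycle inhibition 7 rose (4 without untreated replicate 3 or 4) and 1 fell. The rises included Slfn1 (0.39), Tob1 (0.33) and the cyclins Ccnd3 (0.36) and Ccnd2 (0.25, named to complete the pair). These cyclins promote division rather than restrain it. Rb1, which restrains entry into S phase, fell by 0.39. In the BCL2 family the death-promoting Pmaip1 (NOXA) had 6.21, 4.8 and 5.75 FPKM in treated and 1.27, 0.878 and 1.67 FPKM in untreated libraries (1.55, adjusted p = 0.00197) and Bbc3 (PUMA) had 26.8, 45.8 and 26.3 FPKM in treated and 14.6, 14 and 17.2 FPKM in untreated libraries (1.02, adjusted p = 0.023), and the protective Bcl2l1 rose by 0.39, while Bcl2 was at 0.11 (adjusted p = 0.0997). Of the 40 cell cycle and replication genes E2f1 (0.43) and E2f2 (0.59) rose (0 without treated replicate 5 or untreated replicate 3 or 4), and Mki67, a marker of dividing cells, was at 0.29 (adjusted p = 0.0634). Glucocorticoid-responsive genes, which stress hormones induce, rose in 3 of 12 (1 without untreated replicate 3 or 4), with Tsc22d3 at 196, 213 and 193 FPKM in treated and 158, 151 and 173 FPKM in untreated libraries (0.32, adjusted p = 0.017), Sgk1 at 0.21 and Cxcr4 as above, while Fkbp5 was at 0.28 (adjusted p = 0.087). Genes of the endoplasmic reticulum and the unfolded protein response rose in 6 of 36 (1 without untreated replicate 4), none fell, and Manf rose by 0.35, the stress sensors Ern1 and Atf6 by 0.35 and 0.32. Heat shock genes were uneven. Hsph1 had 33.4, 40.9 and 33.9 FPKM in treated and 18.8, 14.1 and 23 FPKM in untreated libraries (0.94, adjusted p = 0.0153) and Dnaja1 rose by 0.53, whereas the inducible Hspa1b, added after its values were seen, had 19.1, 7.17 and 10.8 FPKM in treated and 32.9, 24.2 and 21.7 FPKM in untreated libraries and was not called (-1.11, adjusted p = 0.0609, and 0.0189 without treated replicate 1).

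The 12 largest falls among named genes were those of Tspan9, Prag1, H2-Q2, Lypd6b, Slc16a5, Etfrf1, Zc3h6, Hddc3, Dtx1, Izumo1r, Ttc28 and Rwdd3, from -1.21 to -0.71. Tspan9 (chr6:127961396-128143594, GRCm38), a tetraspanin of the cell membrane, had 1.29, 1.01 and 1.23 FPKM in treated and 4.07, 4.07 and 3.95 FPKM in untreated libraries (log2 fold change -1.21, standard error 0.0812, adjusted p = 6.53e-04), and Prag1, a scaffold that binds the kinase CSK, had 4.92, 4.59 and 4.39 FPKM in treated and 10.2, 11.6 and 11.2 FPKM in untreated libraries (-1.09, adjusted p = 6.53e-04). Each untreated library was more than 2 times each treated one in both genes. Dtx1, a regulator of Notch signalling that T cell receptor signals induce in anergy, had 55, 56.1 and 57.3 FPKM in treated and 90.2, 95.4 and 98.7 FPKM in untreated libraries (-0.74, standard error 0.0402, adjusted p = 3.63e-04). Slc16a5, a monocarboxylate transporter, had 11.9, 11.9 and 11.6 FPKM in treated and 22.5, 21.5 and 26.9 FPKM in untreated libraries (-0.94, adjusted p = 0.00142). Lypd6b had 7.22, 6.12 and 5.93 FPKM in treated and 12.7, 14.5 and 12.6 FPKM in untreated libraries (-0.94, adjusted p = 0.00184). H2-Q2, a class Ib MHC gene, had 1.64, 1.45 and 1.65 FPKM in treated and 3.0, 5.08 and 5.71 FPKM in untreated libraries (-1.08, adjusted p = 0.0146), and reads of such close paralogs may be split between them in ways the FPKM values do not show. The same uncertainty holds for the other H2 genes and for the Hba, Hbb, Ear, Mcpt, Gzm, Klr and Zfp families. The other 6 falls lay between -0.79 and -0.71.

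Falls were called more often than rises in several lists of nuclear genes and of genes of RNA and translation, which were picked out after their counts were seen. Other such lists stood at or below the share of all genes called lower, with 2 of 39 histone acetyltransferases and deacetylases, 2 of 47 histone methyltransferases and demethylases and 1 of 38 genes of mRNA decay lower. Of 308 genes named Zfp, which encode zinc finger proteins, 33 were called lower (6 without treated replicate 5 or untreated replicate 3) and 2 higher (1 without treated replicate 1, 3 or 5 or untreated replicate 4), the fold change was negative for 239, and the median was -0.12. Zfp445 had 30.2, 28.2 and 27.6 FPKM in treated and 36.5, 37.9 and 34.8 FPKM in untreated libraries (-0.34, adjusted p = 0.00817), and Zfp869 and Zfp810 fell by 0.37 and 0.52, while Zfp385a, the first of the list, and Zfp296 rose by 0.72 and 0.87. Of 50 RNA helicases 10 fell (2 without treated replicate 5 or untreated replicate 4), led by Ddx3x, which unwinds messenger RNA for translation, with 113, 108 and 111 FPKM in treated and 129, 127 and 127 FPKM in untreated libraries (-0.20, standard error 0.0294, adjusted p = 0.00815), and Ddx52, Ddx59 and Ddx39b, with falls of 0.23, 0.39 and 0.15. Of 52 SR and hnRNP splicing regulators 7 fell (0 without treated replicate 5) and 1 rose, among them Srsf10 (-0.25), Srsf5 (-0.18), Mbnl1 (-0.24) and Srsf6 (-0.17). Chromatin remodellers and cohesin fell in 7 of 35 genes (0 without untreated replicate 4), including the ATPase Smarca2, with 34.4, 31.3 and 33.1 FPKM in treated and 39.4, 39.5 and 38.8 FPKM in untreated libraries (-0.25, adjusted p = 0.0132), Chd9 (-0.37) and Chd7 (-0.26), and Arid1a rose by 0.17. All 6 DNA repair genes called of 44 fell (0 without untreated replicate 4), including Nbn (-0.25), Mdm4 (-0.24), Ercc5 (-0.26) and Msh3 (-0.19), and Atm was at -0.19 (adjusted p = 0.153). Among 35 genes of the nucleolus 5 fell (1 without treated replicate 5 or untreated replicate 3 or 5), such as Rrp1b (-0.41) and Npm1 (-0.16), and among 37 aminoacyl-tRNA synthetases 4 (0 without treated replicate 1, 3 or 5 or untreated replicate 4), such as Vars2 (-0.33), with none higher in either list. Of 70 genes of Mediator and the general transcription factors 6 fell (1 without treated replicate 3 or untreated replicate 3 or 4) and 1 rose, including falls of Gtf2i (-0.21) and Med23 (-0.29). With quantile normalization the median of the Zfp genes was -0.14 and that of the RNA helicases -0.10, and centring on the median log-ratio gave -0.10 and -0.05. With all 12 libraries in 1 fit, 2 RNA helicases, 1 splicing regulator and 0 genes of chromatin remodellers and cohesin were called lower. The same fit called 1 gene of the nucleolus, 1 aminoacyl-tRNA synthetase and 1 gene of Mediator and the general transcription factors lower. The CD4 T cell markers had a median of -0.124 in the same libraries, and their part in these falls was not tested.

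**Figure D3:**
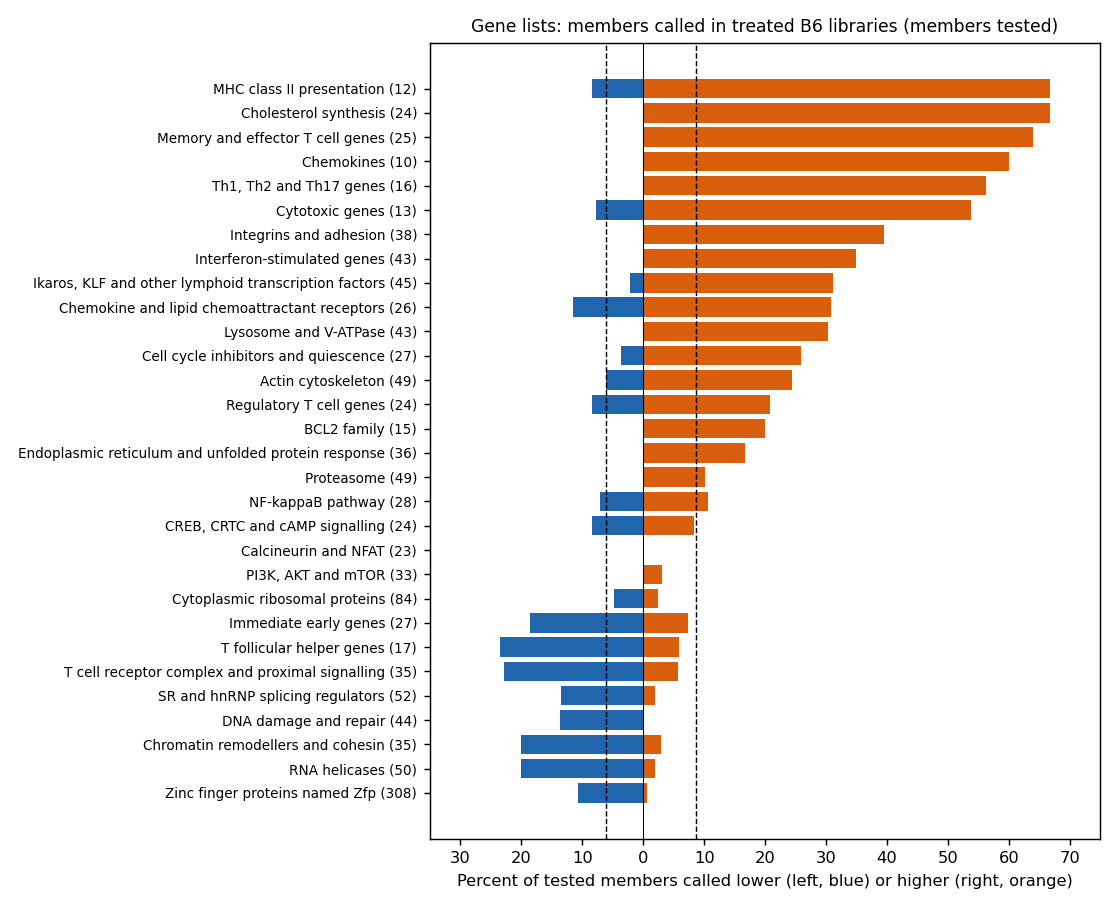
Percent of the tested members of 30 gene lists that were called higher (orange, to the right) and lower (blue, to the left) in treated B6 libraries. Dashed lines mark the shares of all 13115 genes, 8.74% higher and 6.12% lower, and the rises extend furthest for MHC class II, cholesterol and memory and effector genes, with 8 of 12, 16 of 24 and 16 of 25 called higher.

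Several housekeeping groups stood near or below the shares of all genes. Of 84 cytoplasmic ribosomal protein genes 2 were called higher (0 without treated replicate 3 or 5 or untreated replicate 3 or 4) and 4 lower (1 without untreated replicate 4), with a median of -0.003, Rpl22l1 being the largest fall (-0.42, adjusted p = 0.00359). Of 76 mitochondrial ribosomal protein genes 1 was higher and 1 lower, of 44 histone genes 1 was higher and of 40 nuclear pore and transport genes 2 were lower (1 without treated replicate 3 or 5 or untreated replicate 3 or 4). The proteasome had 5 of 49 higher (0 without treated replicate 5 or untreated replicate 4), with Psme1 and Psme2, which form its interferon-inducible activator, at 0.15 and 0.19. Lysosomal genes exceeded these shares, with 13 of 43 higher (5 without untreated replicate 4) and none lower. Ctsh, a cathepsin, rose from 0.362, 0.222 and 0.34 to 3.84, 3.21 and 2.86 FPKM (1.71, adjusted p = 5.93e-04), and Lamp1, a lysosomal membrane protein, had 71.5, 72.4 and 72.7 FPKM in treated and 62.5, 64.4 and 60.3 FPKM in untreated libraries (0.21, adjusted p = 0.0113).

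Called genes differed in the make-up of their transcripts. The median GC content of the longest annotated transcript was 51.4% for genes called higher, 47.8% for those called lower and 49.5% for the rest, and the median length was 2812, 3355 and 2990 bases. From the fifth of genes with the least GC to the fifth with the most, the share called higher went from 5.41% to 11.9% and the share called lower from 8.40% to 4.72%. The part of GC content in the changes was not tested. Segments of the T cell receptor were lower in 28 of 98 variable and 8 of 66 joining genes, and higher in 5 and 3. Among 750 long non-coding RNAs tested, 22 were higher and 44 lower.

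The change in B6 was set against that in SLE123 by the strain-by-treatment interaction, which limma called for 3.64% of all genes. It was called for 272 of the 1146 genes higher in B6, of which 271 had a smaller or opposite change in SLE123, and for 128 of the 802 lower genes, all 128 with a less negative or positive change there. These genes were chosen for their change in the same B6 libraries that enter the interaction, so these counts are a description. SLE123 untreated replicate 3 stood apart in markers of other cells, with 243 FPKM of B cell markers against 68 and 92.5 FPKM in the other untreated SLE123 libraries and 41 to 64.1 FPKM in treated ones, 114 FPKM of monocyte or macrophage markers against 30.8 and 27.6 FPKM and 12.7 to 19.6 FPKM, and 3714 FPKM of CD4 T cell markers against 4648 and 5075 FPKM and 4473 to 4573 FPKM. Plasma cell markers summed to 5118 FPKM in that library, against 1979 and 2857 FPKM in the other untreated and 1066 to 1954 FPKM in treated SLE123 libraries. Without that library the interaction was called for 263 of the higher and 76 of the lower genes, 226 and 69 of them called also with it. The 12 MHC class II presentation genes had a median of 1.04 in B6 and -0.75 in SLE123, where all 12 values were below 0. Without that library the SLE123 median was -0.45 and 10 of 12 values were below 0. For H2-Ab1 the values were 3.33 in B6 and -1.22 in SLE123 (interaction adjusted p = 0.00444), and -0.59 in SLE123 without that library (interaction adjusted p = 9.42e-04). Mcpt8 rose in B6 by 2.23 and fell in SLE123 by 1.59 (interaction adjusted p = 9.64e-05), and without that library its SLE123 value was -1.60 and not called (adjusted p = 0.093), while the interaction was (adjusted p = 2.74e-04). Lyz2 and Tyrobp were at -1.05 and -1.16 in SLE123 and not called there, and the interaction was called for both (adjusted p = 0.00653 and 8.47e-04). Without that library they were at -0.71 and -0.90 (interaction adjusted p = 0.0128 and 9.72e-04). For memory and effector genes the medians were 0.52 and 0.09, and the interaction was called for 10 of 25. The SLE123 change was smaller for Anxa2, Lgals1 and Spry2, with 0.18 for Anxa2, 0.38 for Lgals1 and 0.03 for Spry2 (interaction adjusted p = 5.11e-04, 0.00131 and 0.00178). Dtx1, Tspan9 and Prag1 fell in B6 and were at 0.17, -0.04 and 0.05 in SLE123. For Klf2 the values were 0.73 and 0.26 (interaction adjusted p = 0.30), and for Dapl1 0.60 and 0.63 (adjusted p = 0.976), so that a difference between the strains was not called for either gene. Without SLE123 untreated replicate 3 the SLE123 values were -0.01 for Klf2, where the interaction was then called (adjusted p = 0.0266), and 0.13 for Dapl1 (adjusted p = 0.247). Cholesterol genes had medians of 0.41 and 0.35 and interferon-stimulated genes of 0.24 and 0.43, with the interaction called for 0 of 24 and 1 of 43. The Zfp genes had a median of 0.10 in SLE123 against -0.12 in B6, with 7 of 308 called.

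**Figure D4:**
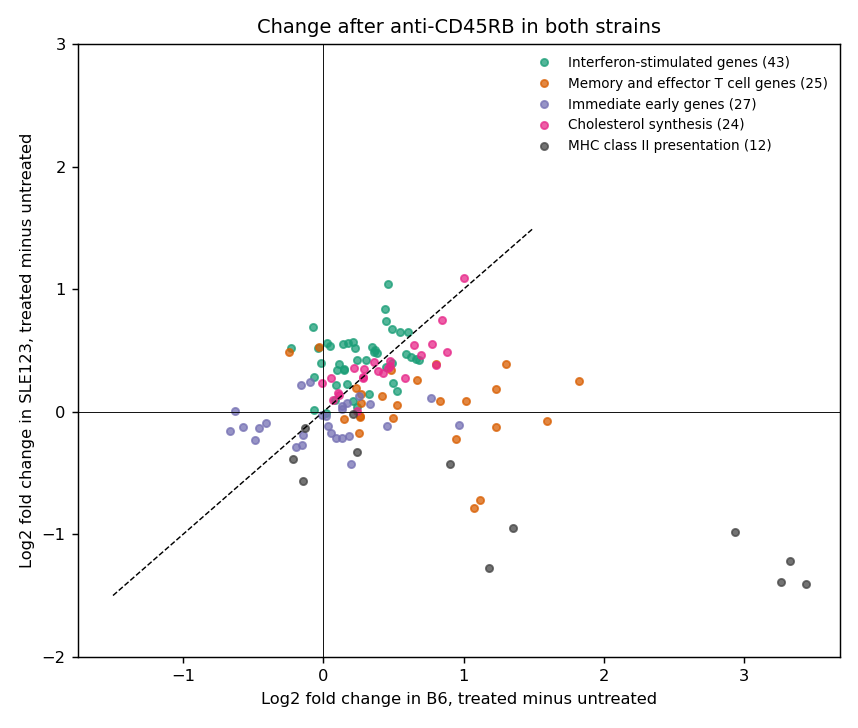
Log2 fold change after anti-CD45RB in SLE123 (y axis) against that in B6 (x axis) for the tested genes of 5 lists, with 1 color per list and a dashed line of equal change. MHC class II genes lie below 0 in SLE123, with medians of 1.04 in B6 and -0.75 in SLE123, while cholesterol and interferon-stimulated genes lie mostly above 0 in both strains.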

How the data were processed

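RNA from purified CD4+ T cells was sequenced in 12 libraries, and libraries were grouped by the strain and treatment of their labels. The authors deposited FPKM values per Ensembl gene and library. Their processing notes name CASAVA 1.8, STAR and mm10, and the methods state a quality filter that removed adaptor-bearing and low-quality reads. The annotation, the counting program and whether strand was used are not given in the sources used here, so that overlapping and antisense genes cannot be told apart.

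Of the 35275 genes, 34490 (97.8%) matched GENCODE M21 (GRCm38), which gave symbols and coordinates. The values of all 23230 genes above 0 were whole multiples of 1 fragment (tolerance 0.01), which gave the totals per library. Limits set by depth cover counting error only, as fragments carried no molecular identifiers.

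Log2(FPKM + 1) was fitted, for genes whose mean over all libraries reached 0.5 FPKM, with limma 3.58.1 in R 4.3.3 (eBayes with a trend) on the 6 B6 libraries, with Benjamini-Hochberg adjustment and a threshold of 0.05. The interaction, the effect in SLE123 minus that in B6, was fitted on all 12 libraries. The fit was tested on simulated data. The alternatives changed 1 choice each: the pseudocount (0.1), the filter (1 FPKM or none), the scaling (TPM, quantile normalization or centring on the median log-ratio), the model (eBayes without a trend, voom on recovered fragments, all 12 libraries together, a block for the replicate number) or the libraries (each omitted in turn).

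The comparison, the 77 gene lists and the 13 marker lists were chosen with earlier results of these data known. Lists are described by counts and medians, with no set test. Genes were named by a rule: the 12 largest rises and 12 largest falls among called genes without overlap and with a mean of at least 1 FPKM, leaving out predicted genes, pseudogenes, receptor segments and 60 metabolic genes, then Ptprc, and from each list its first tested member and up to 4 called members with the smallest adjusted p-values. Named outside this rule, after their values were seen, were Actn1, Anxa1, Araf, Atf6, Bcl6, C1qb, C1qc, Ccnd2, Cd5, Cd6, Cd69, Cd80, Cd86, Cd96, Ciita, Ctla4, Cyld, Entpd1, Eomes, Fdps, Fyn, Grb2, Gzmk, H2-DMa, H2-DMb1, H2-Oa, H2-Ob, Hspa1b, Ifng, Ighg1, Igtp, Ikzf2, Il18rap, Il2ra, Il6st, Irf1, Isg15, Itgae, Itgal, Jchain, Junb, Klrb1c, Lamp1, Lat, Lck, Lcp2, Map3k8, Myb, Nr4a3, Prf1, Rb1, S100a10, S100a11, S100a4, S1pr1, Sqle, Srebf2, Trbc1, Xcl1 and Zap70. Some genes that the rule names are not reported here. Promoters were those of RefSeq on GRCm38.p6, from 250 bases before to 50 bases after the start.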

Additional observations from a re-analysis of the deposited data

Results flagged for a closer look

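The 246 genes named above include 72 whose treatment effect differed between the strains by limma's interaction test (adjusted p from 9.64e-05 to 0.0473). The test called 3.64% of all genes tested. Many named genes were chosen for their change in the same B6 libraries that enter this test, so the count and the sizes are a description. The values given here are the effect in SLE123 minus that in B6, on the log2 scale, with 3 libraries in each of the 4 groups. For MHC class II genes and their invariant chain, it was -4.84 for H2-Eb1, -4.66 for H2-Aa, -4.54 for H2-Ab1, -3.92 for Cd74, -2.46 for H2-DMb2 and -2.30 for H2-DMb1. Among B cell genes and the IgG1 constant region, it was -4.05 for Fcmr, -3.07 for Cd79a, -2.86 for Ighg1 and -2.67 for Cd79b. In genes of myeloid and dendritic cells, it was -4.40 for Lyz2, -3.97 for Tyrobp, -3.16 for Fcer1g, -2.96 for S100a8, -2.88 for S100a9, -2.59 for Ctsh, -2.42 for Csf1r, -2.32 for Itgax, -1.21 for Flt3 and -0.97 for Itgam. Among genes of basophils, eosinophils, red cells and platelets, it was -4.56 for Prss34, -3.89 for Hba-a1, -3.82 for Mcpt8, -3.35 for Prg2, -3.18 for Hbb-bs, -2.43 for Ppbp, -2.41 for Ear2, -2.22 for Pf4, -1.36 for Cyp11a1, -1.24 for Itga2b and -1.21 for Hdc. For chemokine, NK cell and cytotoxic genes, it was -3.50 for Ccl6, -2.35 for Ncr1, -2.22 for Gzma, -2.22 for Ccl9, -2.09 for Ccl5, -1.96 for Ccl3, -1.74 for Ccl4, -1.46 for Cd244a and -1.01 for Nkg7. In memory, effector and regulatory genes, it was -1.67 for Anxa1, -1.56 for Klrg1, -1.35 for S100a4, -1.17 for S100a6, -1.05 for Anxa2, -0.92 for Lgals1 and -0.54 for S100a11. For genes of signalling, survival, stress and other functions, it was -1.83 for Pmaip1, -1.40 for Spry2, -1.39 for Bbc3, -1.28 for Hsph1, -1.08 for Ier3, -0.87 for Dnaja1, -0.86 for Cxcr4, -0.84 for Runx2, -0.64 for Tec, -0.44 for Tob1 and -0.39 for Lamp1. It was positive for genes that fell in B6, at 1.25 for Slc16a5, 1.17 for Tspan9, 1.14 for Prag1, 1.10 for H2-Q2, 0.96 for Zc3h6, 0.92 for Dtx1, 0.92 for Rwdd3, 0.82 for Ttc28, 0.69 for Gpr83, 0.64 for Rrp1b, 0.63 for Dusp6, 0.63 for Zfp810, 0.59 for Ddx59 and 0.59 for Etfrf1. Without SLE123 untreated replicate 3 the test no longer called Etfrf1, Gpr83, Ier3, Ighg1, Itgam, Rwdd3, S100a9, Zc3h6 and Zfp810. No explanation of these differences was tested.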

How the results depend on the processing

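The 1146 genes higher and 802 lower became 756 and 378 with no filter on low values, where 23230 genes were tested, 558 and 257 with all 12 libraries in 1 fit, and 492 to 892 and 183 to 513 without 1 library. Apart from the replicate block, described next, the other alternatives kept both counts within 1.5 times. Replicate numbers 3 and 5 occur in both B6 groups. Deviations of same-numbered libraries from their group means had r = -0.14 and -0.0936, against -0.134 to 0.2 for other pairs. With numbers 3 and 5 alone shared between the groups, these values cannot decide whether the numbers pair the libraries. With the replicate block, which leaves fewer residual degrees of freedom, 0 genes were called higher and 0 lower and 2466 had an unadjusted p-value below 0.05. Of the 207 named genes called, 117 stayed called without each library in turn, and the others lost the call in at least 1 case, which were Actn1, Araf, Arid1a, Atf6, Batf, Bbc3, Bst2, Ccnd2, Ccr7, Cd101, Cd28, Cd3g, Cd5, Cd6, Cd96, Chd7, Chd9, Cxcr5, Cyld, Ddx39b, Ddx59, Dnaja1, E2f1, E2f2, Ear2, Egr1, Egr2, Entpd1, Ercc5, Ern1, Fyn, Grb2, H2-DMa, H2-Ob, H2-Q2, Hba-a1, Hbb-bs, Hsph1, Ifit1, Ifng, Il18rap, Il1rl1, Il6st, Itga5, Itgae, Izumo1r, Junb, Lcp2, Manf, Map2k3, Map3k8, Mbnl1, Mdm4, Med23, Msh3, Myb, Mzb1, Nbn, Nfkbia, Nfkbib, Npm1, Nr4a3, Pde4a, Pde4d, Prg2, Prkacb, Psme1, Psme2, Rb1, Rwdd3, Sgk1, Sh2d1a, Slamf6, Smarca2, Spry1, Srsf10, Srsf5, Srsf6, Tcf7, Tox, Trbc1, Trbc2, Tsc22d3, Vars2, Vsir, Xbp1, Xcl1, Zbtb46, Zc3h6 and Zfp385a. With no filter on low values 78 of these 207 lost the call, with all 12 libraries in 1 fit 88 and with eBayes without a trend 28. Under every alternative other than the block and the left-out libraries, 92 of the 207 kept the call. Rescaling to TPM ended the calls of Cd101, Cd5 and Cd96, quantile normalization those of Arid1a, Ear2, Entpd1, Grb2, Itga5, Msh3, Sgk1, Tcf7, Trbc1, Vsir and Zbtb46, and centring those of Actn1, Cd5, Cd96, Lcp2 and Trbc1. None of these named genes that were called changed direction under any alternative run, and the other called genes were not examined for this. Voom on recovered fragments also called Bcl6, Cd4, Cd44, Cd69, Fkbp5, Fos, Foxp3, Hspa1b, Jchain, Klrb1c, Mki67, Ptprc and Sdc1. Counts in some lists also depended on the fit. With all 12 libraries in 1 fit, 0 proximal T cell receptor genes were called lower in place of 8, and 0 naive genes in place of 5. In that fit 0 endoplasmic reticulum genes were called higher in place of 6, while memory and effector genes kept 16. With no filter on low values, or without a trend, 2 proximal T cell receptor genes were called lower. Some list medians near 0 changed sign. Calcineurin and NFAT had a median of 0.011 as reported and -0.025 with quantile normalization, -0.002 with the replicate block and -0.027 to 0.02 without 1 library. CREB, CRTC and cAMP signalling had a median of 0.012 as reported and -0.019 with quantile normalization. MAP kinase cascade had a median of -0.006 as reported and -0.018 to 0.021 without 1 library. Naive T cell and homing genes had a median of 0.008 as reported and -0.055 with quantile normalization and -0.069 to 0.059 without 1 library. Coinhibitory receptors had a median of -0.05 as reported and 0.068 with the replicate block and -0.176 to 0.077 without 1 library. Mediator and general transcription factors had a median of -0.007 as reported and 0.005 with centring on the median log-ratio and -0.025 to 0.007 without 1 library. Ion channels and calcium pumps had a median of 0.066 as reported and -0.008 with quantile normalization. Hepatocyte markers had a median of -0.037 as reported and -0.101 to 0.044 without 1 library. Without SLE123 untreated replicate 3, an alternative chosen after seeing the data, the interaction was called for 400 genes in place of 478, 331 of them in both, and for 71 of the named genes in place of 72, 63 of them in both, with no change of sign among the 72. The cause of these changes was not tested. At these depths genes near 0.1 FPKM rest on about 3 fragments in a library, and folds of genes with untreated levels near 0 depend on the pseudocount.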

Other observations

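Transcripts of liver cells were present in every B6 library. The summed hepatocyte markers were 41.5 to 48.7 FPKM in treated and 47.2 to 49.2 FPKM in untreated B6 libraries, 46.6 FPKM in SLE123 treated replicate 1 and 0.0767 to 0.483 FPKM in the other 5 SLE123 libraries. Within B6 the ranges of the groups overlapped.

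The share of tested genes called differed among chromosomes, which was not tested. On the X chromosome 3.59% of 418 genes were called higher and 8.61% lower, against 8.74% and 6.12% of all genes. On chromosome 14, which holds the T cell receptor alpha and delta segments, 7.83% of 575 genes were called higher and 10.6% lower.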
